A study of Homo sapiens with 6 samples.

Results

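The transcripts described here are 10 products of the human mitochondrial genome, *MT-RNR2* and the mRNAs *MT-ND1*, *MT-ND2*, *MT-ND4*, *MT-ND5*, *MT-CYB*, *MT-CO1*, *MT-CO2*, *MT-CO3* and *MT-ATP6*. They were chosen by gene symbol and are 10 of the 15917 genes in the deposited table, which lists 36 of the 37 genes that GENCODE release 44 annotates on the mitochondrial chromosome. Total RNA was sequenced from MDA-MB-231, an established human breast cancer cell line, in 6 libraries. Of these, 2 came from cells with the control hairpin shCTRL, whose genotype is labelled WT. Another 2 came from cells with the hairpin shRBMS3-B3 (RBMS3 KD1) and the last 2 from cells with shRBMS3-C3 (RBMS3 KD2), both directed against *RBMS3*, which encodes an RNA-binding protein. Hairpins were carried by lentiviral vectors, and every group shares the same parental line, so the data speak for that line alone. The labels call the 2 libraries of each group biological replicates and do not say whether they came from separate cultures.

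The study asked which transcripts depend on *RBMS3*. The values analysed here do not bear on that question, because the measurement used is one number for each gene, the authors' mean normalized count over libraries. The authors' columns that compare knockdown with control cells were not used, and values of single libraries were not analysed here. Consequently, no level below has an SD or an n, the depth of the libraries is unknown, and no difference between transcripts could be tested against the spread between replicates. The level of each transcript in control cells and in knockdown cells cannot be told apart in these means, and neither can the number of mitochondrial genomes in a cell and the amount of RNA made from each.

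The mitochondrial genome is a small circle whose strands are each transcribed as a long precursor. Most of its genes are read from a single precursor, in which transfer RNAs lie between the mRNAs and are cut out to release them, so that mRNAs from one precursor can come to different levels through processing and decay. The proteins are core subunits of the respiratory chain and of ATP synthase, which are completed by many subunits encoded in the nucleus, and the ribosomal RNAs build the ribosome that translates them inside the organelle. Many mature mitochondrial mRNAs carry very short untranslated ends, though not all do, and several lack a whole stop codon until a poly(A) tail is added. The annotated mRNA lengths used below end with the coding frame, so any untranslated 3′ end of a mature mRNA is not counted in them.

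All 10 transcripts lie on the plus strand of chromosome M in GENCODE release 44 on GRCh38, the assembly that the labels name as hg38. Each is a single uninterrupted exon, and together they cover 11579 bases. The 3′ ends of the 9 mRNAs are shown because they distinguish the members by how translation ends. Each sequence gives the last 24 bases of the annotated transcript, 5′ to 3′ in DNA letters, with the stop codon, or what there is of it, in capitals.
MT-ND1: ctccagcattccccctcaaaccTA
MT-ND2: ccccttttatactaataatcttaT
MT-CO1: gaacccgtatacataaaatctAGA
MT-CO2: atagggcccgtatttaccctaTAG
MT-ATP6: ctctacctgcacgacaacacaTAA
MT-CO3: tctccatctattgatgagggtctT
MT-ND4: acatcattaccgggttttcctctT
MT-ND5: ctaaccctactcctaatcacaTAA
MT-CYB: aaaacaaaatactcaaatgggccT

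A whole final triplet closes 4 of the mRNAs, namely TAA in *MT-ATP6* and *MT-ND5*, TAG in *MT-CO2* and AGA in *MT-CO1*, where AGA is read as a stop in human mitochondria. The other 5 mRNAs end in an unfinished codon. *MT-ND1* has 318 whole codons and 2 bases left over, and *MT-ND2*, *MT-CO3*, *MT-ND4* and *MT-CYB* each have 1 base left over. Libraries were made from total RNA with depletion of ribosomal cDNA rather than by selection of poly(A) tails.

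All 10 transcripts were among the 100 genes with the highest mean normalized count, before any division by length. *MT-RNR2* (ENSG00000210082), the large ribosomal RNA of the mitochondrion, had a mean of 121453 and rank 12. This level is what ribosomal depletion left, so it cannot be read as the amount in the cell. *MT-CO1*, the catalytic subunit of cytochrome c oxidase, had a mean of 67950 at rank 19. *MT-ND4*, a proton-pumping membrane subunit of complex I, followed with 66158 at rank 22.

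*MT-ATP6*, which forms part of the proton path of ATP synthase, had a mean of 58837 and rank 26. The other oxidase subunits *MT-CO3* and *MT-CO2* were close to each other, at 37178 and 36081. *MT-ND2* and *MT-ND5*, both membrane subunits of complex I, had means of 33440 and 32761. The lowest values were 21352 for *MT-CYB*, the cytochrome b of complex III, and 18285 for *MT-ND1*, which helps form the quinone site of complex I, at rank 100. Just outside this range of means, *PLEC*, which encodes the cytoskeletal linker plectin, had a mean of 126410 at rank 11, and *KRT7*, which encodes a keratin, had 18255 at rank 101.

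Together the 10 transcripts made up 2.24% of the sum of means over all listed genes, and the 9 mRNAs made up 1.69%. All 36 listed genes of the mitochondrial genome made up 2.57%, so that the 10 held 87.2% of it. The median listed gene had a mean of 364.

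**Figure D1:**
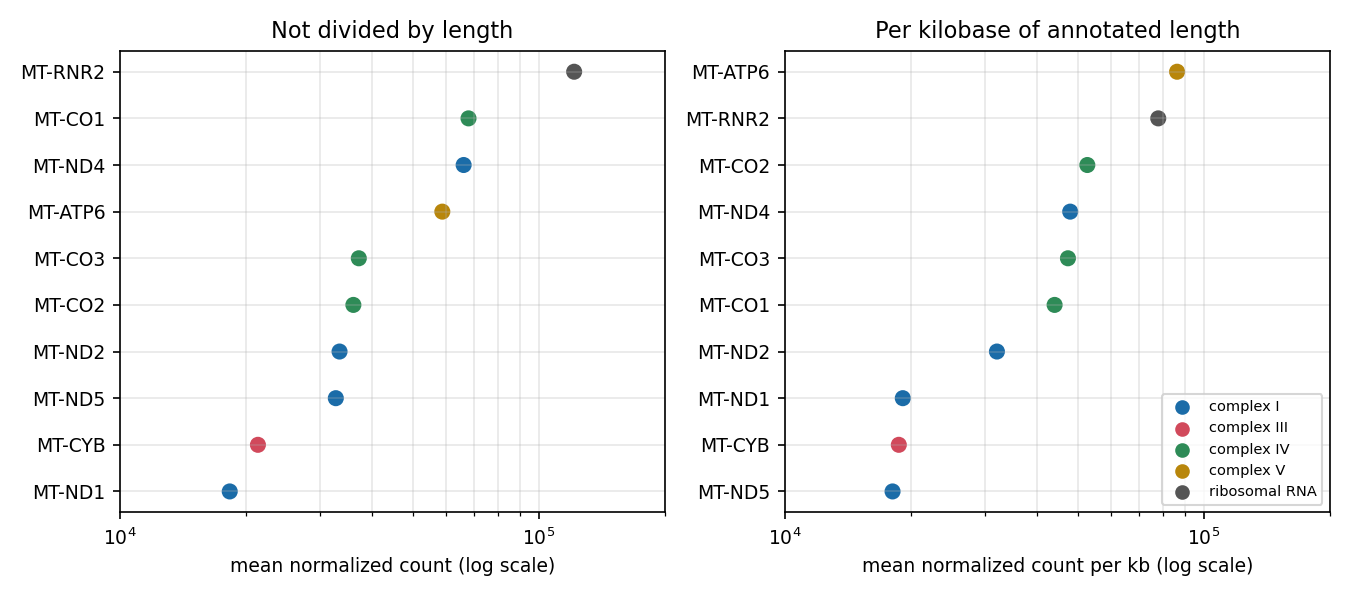
Levels of the 10 mitochondrial transcripts, as the authors' mean normalized count (left) and the same value per kilobase of annotated length (right), both on log axes, with 1 point for each transcript colored by complex and no error bars because the mean is 1 value per gene. *MT-RNR2* is highest at 121453 on the left and *MT-ATP6* is highest at 86398 per kilobase on the right, where *MT-ND1*, *MT-CYB* and *MT-ND5* lie close together at 19127, 18713 and 18080.

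The means above are not corrected for length, and longer transcripts collect more fragments. Per kilobase of annotated length, *MT-ATP6* was highest at 86398, followed by *MT-RNR2* at 77904. *MT-CO2* at 52750, *MT-ND4* at 48010, *MT-CO3* at 47421 and *MT-CO1* at 44066 formed a narrow middle group that held all 3 mitochondrial oxidase subunits. *MT-ND2* stood below it at 32092 per kilobase. *MT-ND1* at 19127, *MT-CYB* at 18713 and *MT-ND5* at 18080 were lowest.

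The step from *MT-ND2* down to *MT-ND1*, at 1.68-fold, was the widest between neighbors in this order. Steps were 1.01-fold between *MT-ND4* and *MT-CO3*, 1.02-fold between *MT-ND1* and *MT-CYB*, and 1.04-fold between *MT-CYB* and *MT-ND5*. With no replicate spread, the order of such neighbors cannot be tested, and *MT-ND4* and *MT-CO3* changed places when 200 bases were taken off each length or when nuclear copies were added. From the highest to the lowest of the 10, the level per kilobase fell 4.78-fold.

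The members of complex I did not lie together. Among them *MT-ND4* was 2.66-fold higher per kilobase than *MT-ND5*, its neighbor downstream, whereas the levels of the 3 oxidase subunits spanned only 44066 to 52750. Across the 9 mRNAs, the level per kilobase and the length had a Spearman rho of -0.67, a description over 9 genes measured in the same libraries. Because the length is the divisor of the level per kilobase, a negative rho is built in to some degree and is not read as a trend. Taking 200 bases off each length raised the shorter ones most, as the arithmetic requires. The part of length in these values was not tested. The order along the genome showed a rho of -0.18 with the level per kilobase over the 9 mRNAs.

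**Figure D2:**
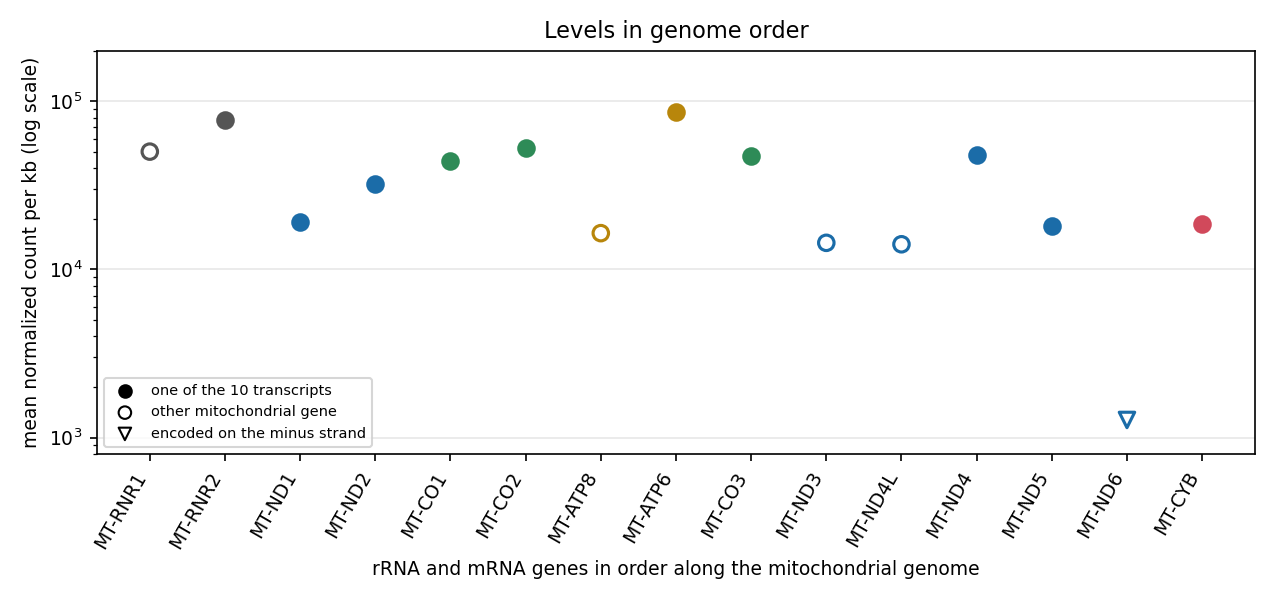
Mean normalized count per kilobase (log axis) of the 15 listed ribosomal RNA and mRNA genes of the mitochondrial genome in genome order, with filled points for the 10 transcripts described, open points for the other 5, and a triangle for the gene on the minus strand. *MT-ND6* is the lowest at 1273 per kilobase, while the 10 transcripts range from 18080 to 86398 with no steady trend along the genome.

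Of the other 5 listed genes of this kind, 4 lay below the lowest of the 10 transcripts per kilobase of annotated length. The part of length in this order was not tested. *MT-RNR1*, the small ribosomal RNA directly upstream of *MT-RNR2* apart from a transfer RNA, had a mean of 47917 and 50227 per kilobase. *MT-RNR2* was 1.55-fold higher per kilobase than *MT-RNR1*, and both passed through the depletion of ribosomal cDNA. *MT-RNR2* was also 4.07-fold higher per kilobase than *MT-ND1*, the mRNA that follows it.

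*MT-ND6*, a complex I subunit and the only mitochondrial mRNA on the minus strand, had a mean of 668 and 1273 per kilobase. *MT-ND5* directly abuts *MT-ND6* on the opposite strand, with 0 bases between them, and its level per kilobase was 14.2-fold higher. *MT-CYB*, on the other side, was 14.7-fold higher than *MT-ND6*. The library kit keeps the strand of the RNA, but whether the authors counted by strand is not given in the sources used here.

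*MT-ATP8* and *MT-ATP6* share 46 bases and are carried on one mRNA, as are *MT-ND4L* and *MT-ND4*, which share 7 bases. Nevertheless, *MT-ATP6* was 5.25-fold higher per kilobase than *MT-ATP8*, and *MT-ND4* was 3.40-fold higher than *MT-ND4L*. *MT-ATP8* and *MT-ND4L* are annotated at 207 and 297 bases, and reads of a joint mRNA can be split between its genes. The levels of *MT-ATP6* and *MT-ND4* are uncertain for that reason. The part of length and of shared reads in these differences was not tested, and the fragment length of the libraries is not given in the sources used here. *MT-ND3*, with a length of 346 bases and no overlapping partner, had 14402 per kilobase.

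The respiratory complexes combine proteins from the mitochondrial and the nuclear genome, which allows transcripts for subunits of the same complex to be set side by side. All 74 nuclear subunits in the lists for complexes I, III, IV and V were found in the table, and 0 of them reached the level per kilobase of the lowest of the 9 mRNAs described here, *MT-ND5*. In complex I, the 4 chosen mitochondrial transcripts had a median of 25609 per kilobase. The 37 nuclear subunits had a median of 1011, from 82.8 for *NDUFA5*, an accessory subunit, to 6292 for *NDUFS5*, another accessory subunit. The representative transcript of *NDUFA5* has 5496 bases and that of *NDUFS5* has 495, and their undivided means were 455 and 3115. The ratio of medians was 25.3, and the lowest of these 4, *MT-ND5*, was 2.87-fold higher than *NDUFS5*. Per kilobase of annotated length, the remaining complex I mRNAs of the mitochondrial genome were lower than *MT-ND5*. These mRNAs, *MT-ND3*, *MT-ND4L* and *MT-ND6*, are annotated at 346, 297 and 525 bases, against 1812 for *MT-ND5*. The part of length in their order against *MT-ND5* was not tested. *MT-ND3* and *MT-ND4L* still lay above all 37 nuclear subunits, whereas *MT-ND6* lay below 15 of them and above 22, and *NDUFS5* was 4.94-fold higher than *MT-ND6*.

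In complex III, *MT-CYB* at 18713 per kilobase stood against 9 nuclear subunits with a median of 1088. These ran from 175 for *UQCRB* to 2661 for *UQCRH*, both small accessory subunits, and the ratio of *MT-CYB* to the median was 17.2. The low value of *UQCRB* rests on a representative transcript of 8459 bases, against 537 for *UQCRH*. Without division by length, *UQCRB* had a mean of 1482 and *UQCRH* had 1429. In complex IV, the median of the 3 mitochondrial mRNAs was 47421 per kilobase and that of the 11 nuclear subunits was 2456, a ratio of 19.3. The nuclear values extended from 343 for *COX7B* to 7291 for *COX7C*, small subunits that surround the catalytic core. Their representative transcripts have 2444 and 629 bases, and their undivided means were 839 and 4586. In ATP synthase, *MT-ATP6* at 86398 per kilobase was 44.8-fold above the median of 17 nuclear subunits, which was 1927. The highest of them, *ATP5F1B*, the catalytic beta subunit, had 5111 per kilobase, and the lowest, *ATP5MC3*, a gene for the rotating c ring, had 469. Their representative transcripts have 1759 and 2587 bases, and their undivided means were 8991 and 1214. The lowest undivided mean of the 17 was 684, for *ATP5MC1*. *MT-ATP8*, carried on the same mRNA as *MT-ATP6*, was lower at 16445 per kilobase and still lay above all 17. The 44.8-fold ratio was computed for *MT-ATP6* alone. The lower level of *MT-ATP8* rests on 207 annotated bases, of which 46 are shared with *MT-ATP6*, and the part of length in it was not tested.

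For the 9 mRNAs the difference existed in each complex, and its size depends on the annotated length. With the longest annotated transcript of each nuclear gene in place of its representative one, a change that can only lower or keep nuclear levels, the ratios for complexes I, IV and V were 52.6, 34.6 and 81.1. Summed without division by length, the 9 mRNAs had 3.23 times the mean normalized counts of the 74 nuclear subunits, which made up 0.523% of the sum over all listed genes. The nuclear list holds many more genes than the mitochondrial one, so these sums do not compare single subunits.

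**Figure D3:**
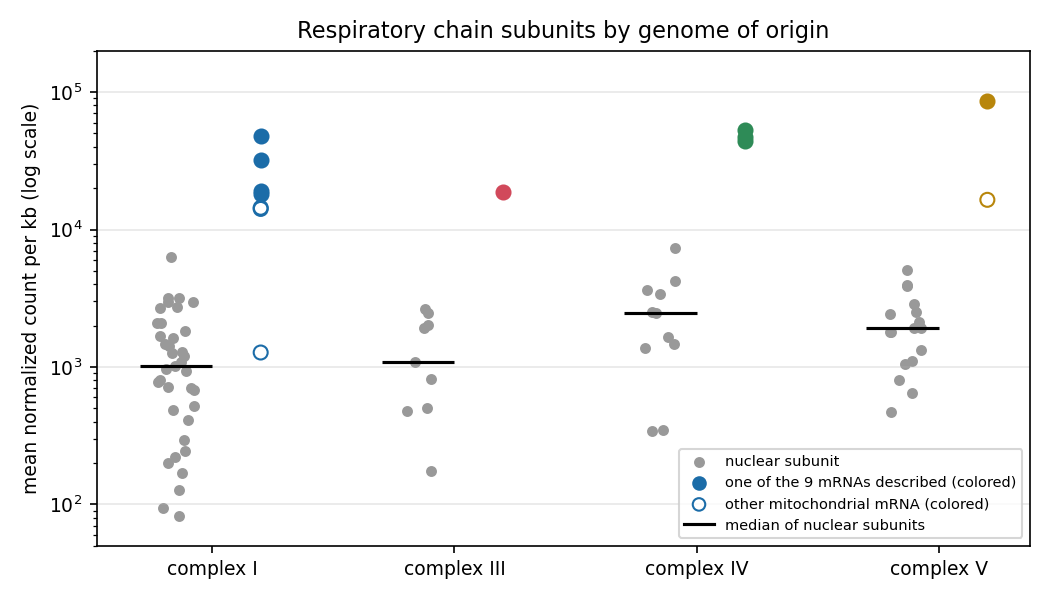
Mean normalized count per kilobase (log axis) of nuclear subunits (gray points, with their median as a black bar) of the 9 mitochondrial mRNAs described (filled colored points) and of other mitochondrial mRNAs (open colored points) in 4 respiratory complexes; points are genes and carry no error bars. Each of the 9 mRNAs lies above all nuclear subunits of its complex, from 2.87-fold in complex I to 16.9-fold in complex V for the lowest of the 9 against the highest nuclear subunit, while *MT-ND6* at 1273 lies among the nuclear subunits.

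Among all 12395 nuclear protein-coding genes with an annotated length, 31 had a higher level per kilobase than *MT-ND5* and 3 had a higher level than *MT-CO1*, the median of the 9 mRNAs. These 3, named after their values were seen, were *S100A6*, which encodes a small calcium-binding protein, at 100269 per kilobase, *ACTB*, which encodes beta-actin, at 76587, and the glycolytic gene *GAPDH* at 51965. Only *S100A6* exceeded *MT-ATP6*. The median nuclear protein-coding gene had 152 per kilobase.

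The factors that transcribe, cut, stabilize and degrade mitochondrial RNA are themselves encoded in the nucleus. A list of 33 such genes, which also holds the DNA replication genes *POLG*, *POLG2*, *TWNK* and *SSBP1*, was found in the table in full, with means from 88.8 to 3488 and a median of 611. *ELAC2*, which trims the 3′ ends of transfer RNAs in the precursor, had a mean of 3488, or 926 per kilobase. *LRPPRC*, which protects mitochondrial mRNAs, had a mean of 2509, or 380 per kilobase, and *POLG*, the catalytic subunit of the mitochondrial DNA polymerase, had 2287, or 513 per kilobase. *MTERF2* and *MTERF1*, members of the mitochondrial termination factor family, had means of 88.8 and 119, or 49.8 and 30.3 per kilobase. The highest levels per kilobase, named after the values were seen, were 2496 for *SSBP1*, which encodes a DNA-binding protein, and 2312 for *SLIRP*, the partner of LRPPRC. The targeted gene *RBMS3* had a mean of 272, higher than 43.3% of listed genes, and its reduction in knockdown cells could not be checked from a mean over libraries.

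Fragments of the mitochondrial genome have been copied into nuclear chromosomes, and reads from near-identical copies cannot always be assigned to their source. The transcripts were therefore cut into all words of 31 bases, and each word was sought in every nuclear GENCODE transcript. Of the listed nuclear genes, 15 annotated as pseudogenes shared at least 1 exact word with one of the 10 transcripts, and these had a summed mean of 10552, or 2.14% of the sum of the 10. Copies were found for 8 of the transcripts, whereas *MT-CYB* and *MT-RNR2* shared no word with a listed pseudogene. The 4 listed *MTRNR2L* genes, related in sequence to *MT-RNR2*, had no transcript in this release and could not be searched. They are therefore not among the 15 copies or in their sum.

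A block on the plus strand of chromosome 1, chr1:629062-634922 in GRCh38, holds 6 of the 15 copies and 86.7% of their summed mean. The highest was *MTND1P23* (listed as RP5-857K21.9), a copy of 372 bases of *MT-ND1*, with a mean of 3411. This was 18.7% of the mean of *MT-ND1*, and *MTND1P23* held 27.8% of the words of *MT-ND1*. That percentage is not corrected for the shorter length of the copy. Per kilobase, *MTND1P23* had 9169 and *MT-ND1* had 19127. *MTCO1P12* (listed as RP5-857K21.6) had a mean of 2087, or 3.07% of that of *MT-CO1*, although it shared 62.2% of its words. *MTATP6P1* (listed as RP5-857K21.10) had 1317 and shared 61.3% of the words of *MT-ATP6*.

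*MTCO3P12* (listed as RP5-857K21.11) had a mean of 1195, or 3.21% of that of *MT-CO3*, and *MTND2P28* (listed as RP5-857K21.8) had 996, or 2.98% of that of *MT-ND2*. *MTCO2P12* (listed as RP5-857K21.7), named after its value was seen, had a mean of 139, only 0.385% of that of *MT-CO2*, although 50.5% of the words were shared. Over the 15 copies, the share of words held in common and the level of the copy relative to its mitochondrial transcript had a Spearman rho of 0.77, given as a description, since several copies share a source and all were measured in the same libraries. If all reads of the copies came from the mitochondrion, *MT-ND1* would rise from 19127 to 22694 per kilobase, while the sum for *MT-CO1* would rise from 44066 to 45600. The source of these reads was not tested. The protein-coding gene *SPTLC3*, also named after its value was seen, shared 2 words with *MT-ND1*.

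**Figure D4:**
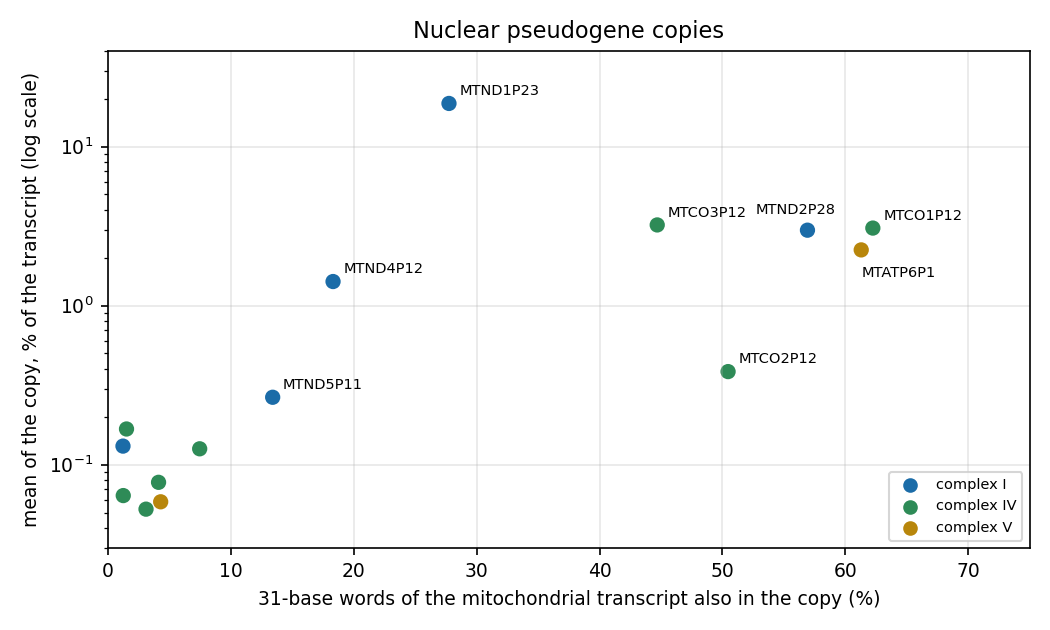
For each of the 15 listed nuclear pseudogene copies, the share of 31-base words of the mitochondrial transcript that also occur in the copy (horizontal axis, %) and the mean of the copy as a percentage of the mean of the mitochondrial transcript (vertical log axis), colored by complex. *MTND1P23* stands apart at 18.7% of *MT-ND1*, and the other 14 copies lie at or below 3.21%.

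In the study, the AUA element is the sequence of interest in the 3′ untranslated regions of transcripts that respond to *RBMS3*. The element, written as A, G or T, then A or T, then ATA, then A or T, then A, was searched with overlaps on the transcribed strand of the 10 transcripts. It occurred 11 times, in 6 of them. Of these matches, 10 are printed in capitals with 7 bases on either side, to show where mitochondrial transcripts contain these letters.
MT-RNR2 from base 65: tttacccAAATAAAgtatagg
MT-RNR2 from base 149: ccaagcaTAATATAgcaagga
MT-ND1 from base 698: attattaTAATAAAcaccctc
MT-ND2 from base 140: accaaaaAAATAAAccctcgt
MT-ND2 from base 935: aacgtaaAAATAAAatgacag
MT-CO1 from base 509: attatcaATATAAAaccccct
MT-ND5 from base 318: cactgtgATATATAaactcag
MT-ND5 from base 320: ctgtgatATATAAActcagac
MT-ND5 from base 1535: aaacttaAAATAAAatcccca
MT-CYB from base 29: aacccccTAATAAAattaatt

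*MT-ND2* and *MT-ND5* held 3 matches each, of which 1 pair in *MT-ND5* overlaps. *MT-RNR2* held 2, and *MT-ND1*, *MT-CO1* and *MT-CYB* held 1 each. *MT-CO2*, *MT-CO3*, *MT-ATP6* and *MT-ND4* held none. All matches in mRNAs lie in coding sequence, since the annotated mRNAs have no untranslated 3′ region beyond the coding frame, and 7 of the 11 overlap the letters AATAAA. The element was present at 0.950 matches per kilobase over the 10 transcripts, against 1.65 per kilobase over 15793 representative nuclear transcripts of listed genes. The nuclear transcripts were searched whole, with their untranslated regions, so these densities compare unlike kinds of sequence.

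Among nuclear transcripts within 10% of the length of *MT-ND4*, again searched whole, 66.9% held at least 1 match. The share was 51.1% at the length of *MT-ATP6*, 50.4% at that of *MT-CO2* and 50.6% at that of *MT-CO3*. At the length of *MT-ND5*, with its 3 matches, 77.4% of nuclear transcripts held the element. A nuclear transcript without a match is thus not unusual at these lengths. Length was matched and base composition was not. *MT-CO3*, *MT-CO2*, *MT-ND4* and *MT-ATP6* held 53.4% to 55.8% A and T, against medians of 48.1% to 49.8% in nuclear transcripts of their lengths. How often the element would be absent at equal composition was not tested. A match describes the sequence and is not evidence of binding, and its absence from these windows says nothing about the protein.

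The base composition of the 9 mRNAs was uneven and shared by all of them. Their sequences held 9.50% to 16.2% G and 30.0% to 36.0% C, with 26.8% to 31.3% A and 23.8% to 26.7% T. *MT-ND2*, *MT-ND4* and *MT-ATP6* had the least G, at 9.50%, 9.94% and 10.4%, and the oxidase subunits *MT-CO1*, *MT-CO2* and *MT-CO3* had the most, at 16.2%, 14.9% and 14.8%. The content of A and T was lowest in *MT-ND1*, at 52.3%, and highest in *MT-ND2*. *MT-ND6*, read from the other strand, held 35.6% G and 7.05% C.

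Marker levels were compared with the labelled cell line. The 6 genes expected in MDA-MB-231 all had high means, from 4947 for *CAV1* to 69335 for *VIM*, which encodes vimentin. Of 6 luminal or epithelial genes, 4 were found, with 31.6 for *CDH1* (E-cadherin) but 17802 for the keratin gene *KRT8*. Of 4 markers of blood and vessel cells, 2 were found, with 1637 for *CD68* and 69.0 for *PECAM1*. Their part in the levels described above was not tested.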

How the data were processed

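Total RNA-seq libraries were prepared from 5 ng of RNA with a stranded kit that depletes ribosomal cDNA and were sequenced with paired ends. Salmon, DESeq2 and the build hg38 are named in the submitters' processing notes, without versions. The annotation and the filter on low values are not given in the sources used here. A legend in the paper's supplement describes the comparison as duplicates in each arm without naming the libraries, so the mean may rest on fewer than the 6 libraries. The value used is the deposited signal, the authors' mean normalized count (counts divided by size factors, averaged over libraries, from 26.7 to 859682). The other 5 value columns (log2 fold change, its standard error, test statistic, p-value and adjusted p-value) are the comparison of the authors and were not used, so no test was made. Earlier results of these data were known when the transcripts and lists were chosen.

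Gene IDs were matched to GENCODE release 44 on GRCh38 (15829 matched, 88 not). The length was that of the MANE Select or Ensembl canonical transcript, otherwise the longest. Nuclear lists were matched by current or older symbols. Words of 31 bases were compared exactly on the transcribed strand. Named genes were the 10 transcripts, the highest and lowest nuclear subunit of each complex, the highest copies, the 3 highest and 2 lowest RNA-handling factors, the genes next to the range of means, and *RBMS3*. Counts of separate motif matches, ranks and shares below a value were tested on simulated data. Overlapping matches and the comparison of words were not tested in this way. Computations were made in Python 3.11.15 with pandas 2.3.3, numpy 2.4.6 and SciPy 1.17.1, and plots with matplotlib 3.10.9. Sequences were read from the GENCODE transcripts, and 1 of them is not reported here.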

Additional observations from a re-analysis of the deposited data

How the results depend on the processing

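No paired analysis was possible because a mean over libraries carries no replicate number. For the same reason, another normalization, another filter and the omission of each replicate were not run, and the depth sets no stated limit. The median level per kilobase of the 10 transcripts was 45744, and 53397 with 200 bases taken off each length or 47145 with nuclear copies added. The highest over the lowest was 4.78, 6.02 and 4.87 in the same order. The 200 bases were taken off for the 10 transcripts only, and not for other mitochondrial genes or nuclear subunits. Comparisons with those genes were therefore not examined in this way. Their share of the summed mean was 2.24%, or 2.29% with copies. With ribosomal RNA genes left out of the transcripts and of the sum, the 9 mRNAs held 1.78%, against 1.69% of the full sum. Ratios of medians to nuclear subunits were 25.3, 17.2, 19.3 and 44.8 for complexes I, III, IV and V. With the longest nuclear transcripts they were 52.6, 17.2, 34.6 and 81.1, and the lowest of the 9 mRNAs in a complex against its highest nuclear subunit gave 2.87, 7.03, 6.04 and 16.9. The longest transcript can only lower or keep nuclear levels, so its ratios could not have become smaller. Matches to the AUA element numbered 11, and AATAAA in its place occurred 8 times. In the order per kilobase, 2 transcripts, *MT-ND4* and *MT-CO3*, changed places under either alternative.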

Other observations

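Transfer RNAs lie between the mRNAs of the mitochondrial precursor, and 21 of their genes were listed, at lengths of 59 to 75 bases. Their means, without division by length, ran from 42.4 for *MT-TL2* to 5958 for *MT-TV*, with a median of 229, and made up 0.0505% of the sum over all listed genes. *MT-TV*, which lies between *MT-RNR1* and *MT-RNR2*, was followed by *MT-TE* at 1055. All other transfer RNAs were at or below 493. The fragment length of the libraries is not given in the sources used here, and how well genes this short were captured was not tested.

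The table also lists 4 *MTRNR2L* genes, nuclear genes related in sequence to *MT-RNR2*. *MTRNR2L12* had a mean of 2624, and *MTRNR2L8*, *MTRNR2L1* and *MTRNR2L4* had 74.5, 71.9 and 62.9. Their sum was 2.33% of the mean of *MT-RNR2*. The identifiers of these genes had no transcript in GENCODE release 44, so words shared with *MT-RNR2* were not counted for them.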
